A study of Mus musculus with 18 samples.

Results

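Col1a2, Fn1, Fbn1, Col4a1, Col4a2 and Sparc are 6 genes of the extracellular matrix, chosen by name, and all 6 were among the 10509 genes measured in pancreatic islets of mice. The study compared islet transcripts with and without NRK1 in beta cells, the nicotinamide riboside kinase of NAD synthesis encoded by Nmrk1. The knockout group, KO 1 to KO 10, held 10 islet libraries labelled NRK1_BKO, in which Ins1Cre, a Cre driven by the insulin gene Ins1, restricts the deletion to beta cells, and the WT group, WT 1 to WT 8, held 8 islet libraries labelled NRK1_WT. Mice of both groups had been fed a high-fat diet for 12 weeks. The labels give neither age, sex nor strain. Sample names of both groups begin with Ins1Cre, and the labels do not say whether WT mice carried it. Whole islets were profiled, so the libraries also held RNA of endothelial, stromal, immune and exocrine cells that the driver does not target. In such bulk RNA, fewer cells of a type and less RNA per cell cannot be told apart.

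The extracellular matrix of islets has an interstitial part and a basement membrane part. Interstitial matrix is built by fibroblasts and stellate cells from fibrillar collagens, among them type I, whose second chain is Col1a2, from fibronectin (Fn1), which links collagens to integrins on cells, and from fibrillin 1 (Fbn1), which forms microfibrils that hold latent TGF-beta. Basement membrane lines the capillaries, and its network of type IV collagen is built from heterotrimers of Col4a1 and Col4a2 chains. In islets these chains are known to come largely from endothelial cells, which beta cells attract with VEGF-A and on whose basement membrane they rest. Sparc is a matricellular glycoprotein that binds collagens and modulates cell contact with matrix, and it is made by both endothelial and stromal cells.

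Libraries were made from the 3' ends of transcripts, where reads do not scale with transcript length, so levels in CPM (reads scaled to a common library size) are compared between genes without dividing by length. Over the listed genes a library held 2831137 to 4303680 reads. KO 2, KO 3 and WT 7 stood apart from the rest: 320, 227 and 346 of the listed genes had no read in them, against 33 to 150 in the other 15 libraries. These 3 libraries also held the highest Sparc and Col4a1 values, so results are given with and without them. Nmrk1 had 4 to 21 reads per library in KO and 3 to 36 in WT, and reads at the 3' end do not check the deletion because the deleted part is not given in the labels. Both groups were islets by their insulin transcripts, with Ins2 at a mean of 455321 CPM in KO and 369524 CPM in WT. Ins1 went the other way, at 44532 CPM in KO and 69068 CPM in WT (log2 fold change -0.68, limma adjusted p = 0.926). Of 10 measured beta-cell markers 3 had a log2 fold change above 0 and 7 below, with a median of -0.08. Endothelial cells were well represented, with 19 of 19 listed markers measured and a summed level of 505 to 862 CPM in KO and 532 to 727 CPM in WT. Fibroblast and stellate markers were sparse: 6 of 13 were measured, summing to 91.6 to 192 CPM in KO and 76.4 to 147 CPM in WT, and decorin (Dcn), a proteoglycan of fibroblasts, averaged 2.81 CPM in KO and 2.87 CPM in WT. Pericyte and smooth muscle markers had 9 of 13 measured and summed to 26.7 to 108 CPM in KO and 34.0 to 94.9 CPM in WT. None of the measured markers in these 3 lists was at 0 reads in every library. Acinar markers, from exocrine tissue carried with islets, summed to 59.0 to 2407 CPM in KO and 75.6 to 2287 CPM in WT. The defining fibroblast markers Pdgfra, Lum, Thy1 and Dpt were not among the 10509 genes measured.

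The 6 genes fell into a clear order of level, with Col4a1, Col4a2 and Sparc far above the 3 interstitial genes. This order is that of the 6 genes and not of longer lists of matrix genes. There 15 interstitial genes summed to a median of 240 CPM in KO and 220 CPM in WT. The 12 basement membrane genes summed to 250 CPM in KO and 216 CPM in WT. Over the 18 libraries Sparc averaged 210 ± 75.3 CPM, Col4a1 100 ± 41.0 CPM, Col4a2 53.0 ± 12.3 CPM, Col1a2 10.8 ± 6.72 CPM, Fbn1 2.69 ± 3.29 CPM and Fn1 2.23 ± 1.90 CPM (SD, n = 18 each). Sparc was the gene of rank 376 from the top among the 10509, Col4a1 of rank 1065, Col4a2 of rank 2171 and Col1a2 of rank 6649, while Fbn1 and Fn1 were at ranks 9683 and 9962. Sparc exceeded Col4a1, Col4a1 exceeded Col4a2, Col4a2 exceeded Col1a2 and Col1a2 exceeded Fbn1 in 18 of 18 libraries. The mean log2 differences between these neighbours were 1.07 ± 0.29, 0.87 ± 0.36, 2.41 ± 0.85 and 2.11 ± 0.97 (SD, n = 18). Fbn1 and Fn1 did not differ beyond their spread, with Fbn1 above Fn1 in 7 of 18 libraries and a mean log2 difference of -0.06 ± 1.20 (SD, n = 18). Reads behind these levels ranged from 475 to 1008 per library for Sparc, 212 to 645 for Col4a1, 102 to 264 for Col4a2, 14 to 74 for Col1a2, 0 to 34 for Fbn1 and 2 to 30 for Fn1.

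**Figure D1:**
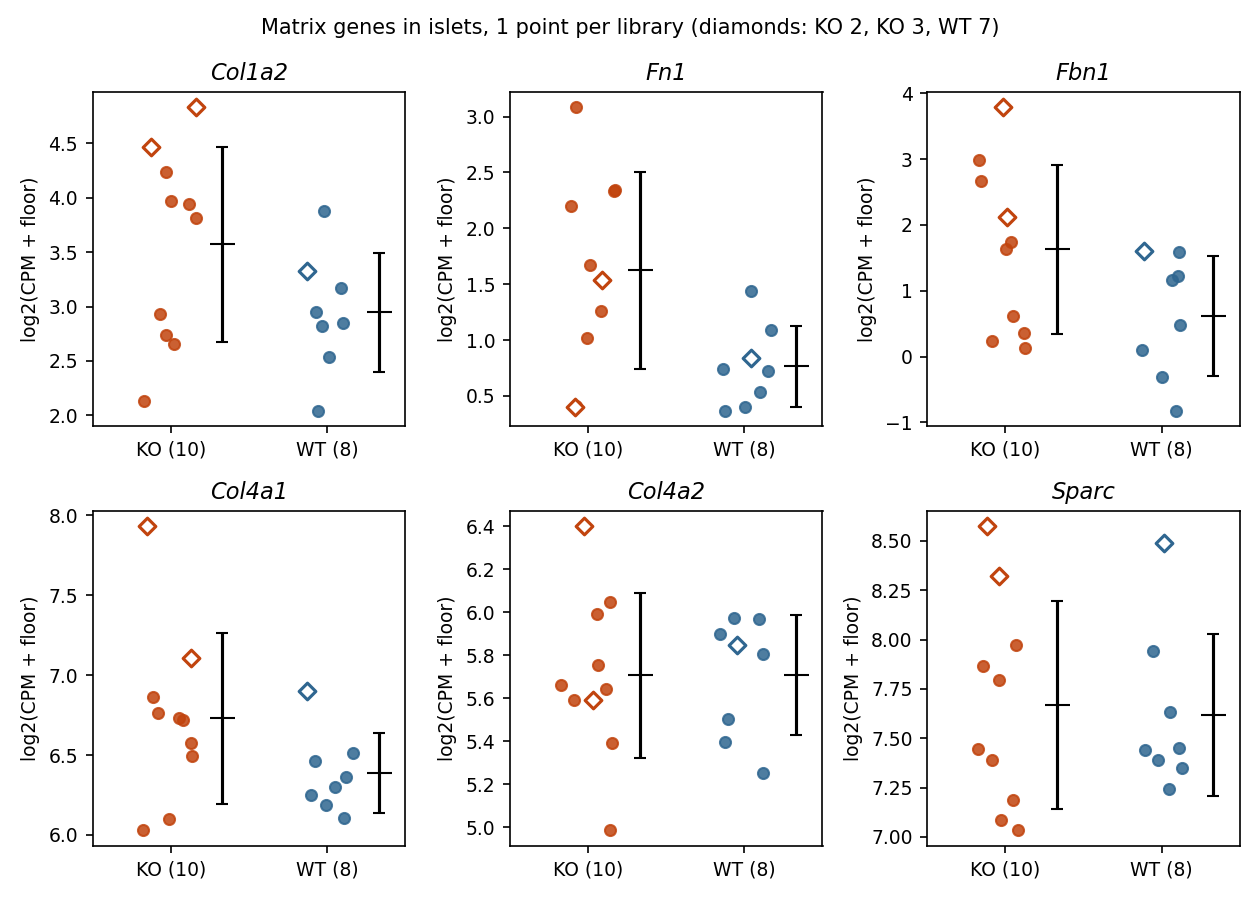
Deposited log2 values, log2 of CPM plus a floor shared by all libraries, of the 6 genes, with KO left and WT right in each panel; each point is 1 library, diamonds are KO 2, KO 3 and WT 7, and bars are mean and SD. The groups overlap for each gene, and the diamonds lead in Sparc and Col4a1.

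Col4a1 and Col4a2 lie next to each other on chromosome 8 and are transcribed away from a common region in opposite directions. In RefSeq on GRCm38.p6, Col4a1 spans 11198423 to 11312889 on the minus strand and Col4a2 spans 11312805 to 11449287 on the plus strand. The windows of 300 bases around their start sites, 250 bases before to 50 after, share 78 bases (11312777 to 11312854), and the start sites used for the windows, 11312826 and 11312805, lie inside that shared stretch. Both windows are shown because these 2 genes are the basement membrane pair whose values are compared with each other, and capitals mark the shared bases, each written 5′ to 3′ on the gene's own strand.
Col4a1, chr8:11312777-11313076, minus strand: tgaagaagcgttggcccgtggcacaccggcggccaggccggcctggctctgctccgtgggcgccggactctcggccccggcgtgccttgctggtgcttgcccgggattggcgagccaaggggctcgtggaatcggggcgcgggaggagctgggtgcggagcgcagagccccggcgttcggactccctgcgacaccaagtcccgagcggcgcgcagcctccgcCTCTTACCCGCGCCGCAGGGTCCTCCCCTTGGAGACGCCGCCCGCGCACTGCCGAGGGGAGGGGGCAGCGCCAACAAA
Col4a2, chr8:11312555-11312854, plus strand: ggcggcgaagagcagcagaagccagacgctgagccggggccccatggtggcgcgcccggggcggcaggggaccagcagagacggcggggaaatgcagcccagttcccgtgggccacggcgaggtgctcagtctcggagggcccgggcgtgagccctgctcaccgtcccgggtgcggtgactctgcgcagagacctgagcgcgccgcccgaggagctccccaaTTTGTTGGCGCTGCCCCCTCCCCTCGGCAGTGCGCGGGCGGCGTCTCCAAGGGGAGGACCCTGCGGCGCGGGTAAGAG
G and C made up 74.0% of the Col4a1 window and 73.7% of the Col4a2 window, against a median of 52.7% over 32851 promoter windows of the same length. The pentamer CCAAT, searched on both strands, occurred once in each, and 37.4% of all windows hold it. The hexamer GGGCGG, also searched on both strands, occurred at 1 position in the Col4a1 window and 3 in the Col4a2 window, and 35.7% of all windows hold it. TATAAA was in neither window and is in 13.6% of all.

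Col1a2, the one of the 3 interstitial genes with the most reads, lies on chromosome 6 (4505618 to 4541543, plus strand), and its window is shown for comparison with capitals on the CCAAT matches of either strand.
Col1a2, chr6:4505368-4505667, plus strand: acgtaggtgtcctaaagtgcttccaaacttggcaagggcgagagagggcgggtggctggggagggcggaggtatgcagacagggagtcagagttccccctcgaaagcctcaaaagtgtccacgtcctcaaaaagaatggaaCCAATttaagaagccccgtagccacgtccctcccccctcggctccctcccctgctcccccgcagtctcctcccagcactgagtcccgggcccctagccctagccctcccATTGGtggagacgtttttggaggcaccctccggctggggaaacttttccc
It held CCAAT at 2 positions and GGGCGG at 2, with 61.0% G and C. The windows of Fbn1 (chromosome 2, 125300594 to 125506485) and Sparc (chromosome 11, 55394159 to 55420080) held 0 CCAAT matches, and Fbn1 held GGGCGG at 1 position and Sparc at 0. Fn1 is on chromosome 1 (71585473 to 71653280). These matches describe letters only and say nothing of binding.

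Across libraries, Col4a1 varied with Sparc and, by Pearson r alone, with its partner Col4a2, while 0 of the 3 pairs within the interstitial group passed. Correlations were computed on log2 values after each genotype's mean had been removed, for all 15 pairs of the 6 genes, with permutation within genotype (100000 permutations, two-sided) and Benjamini-Hochberg adjustment over the 15. With 18 libraries 3 pairs passed: Col4a1 with Sparc, Col1a2 with Sparc, and Col4a1 with Col4a2. Each library is a mixture of cells at its own depth, and the part of cell make-up in these correlations was not tested beyond the alternatives given. The median Pearson r of Col4a1 with other genes (mean log2 value of at least 3) was -0.03, and that of Sparc -0.02.

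Col4a1 and Sparc had a Pearson r of 0.85 (permutation p = 1e-05, the smallest these permutations can give, adjusted p = 0.00015) and a Spearman rho of 0.78 (permutation p = 0.00055, adjusted p = 0.00825) over 18 libraries. Without KO 2 and KO 8, the libraries farthest from the median of Col4a1, r was 0.83. It was 0.87 in KO (n = 10) and 0.87 in WT (n = 8). Among all other genes of the table Sparc was the gene of highest r with Col4a1. KO 2, KO 3 and WT 7 lay apart from the others in both genes, and within the other 15 libraries r was 0.66 (permutation p = 0.0227, adjusted p = 0.234), so the call rests on the 3 libraries.

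Col4a1 and Col4a2 had a Pearson r of 0.67 (permutation p = 0.00787, adjusted p = 0.0393) and a Spearman rho of 0.43 that did not pass (permutation p = 0.0941, adjusted p = 0.202). Without KO 2 and KO 8 r was 0.26, so the relation rests on those samples, and without KO 2, KO 3 and WT 7 it was 0.58 (n = 15, permutation adjusted p = 0.234). It was 0.83 in KO (n = 10) and 0.11 in WT (n = 8), and the difference between genotypes was not tested. Ranked by r over all other genes, Col4a2 stood at place 114 for Col4a1, and Col4a1 at place 36 for Col4a2. Neither gene of the head-to-head pair was the best match of the other in these libraries.

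Among the interstitial genes, Col1a2 and Fbn1 had a Pearson r of 0.52 (permutation p = 0.0460, adjusted p = 0.135) and a Spearman rho of 0.55 (permutation p = 0.0319, adjusted p = 0.120). Fn1 had an r of 0.05 with Col1a2 and 0.15 with Fbn1 over 18 libraries, and of 0.38 and 0.33 over the 15 without KO 2, KO 3 and WT 7. Fn1 and Fbn1 rest on few reads, and none of these values passed. The 6 pairs across the interstitial and basement membrane groups had r of -0.36 to 0.49 with 0 past the threshold, from Fn1 with Col4a1 at -0.36 to Fbn1 with Col4a1 at 0.49. Col1a2 with Col4a1 stood at 0.48 in 18 libraries and 0.02 without KO 2, KO 3 and WT 7. Col1a2 passed with Sparc, with an r of 0.69 (permutation p = 0.00389, adjusted p = 0.0292), a rho of 0.68 (adjusted p = 0.0419) and an r of 0.53 without KO 10 and KO 2. This too was lost without the 3 libraries (r = 0.54, n = 15, permutation adjusted p = 0.317). By r over all other genes, Sparc stood only at place 361 for Col1a2, and Col1a2 at place 159 for Sparc. No direct test of the interstitial against the basement membrane group was made.

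**Figure D2:**
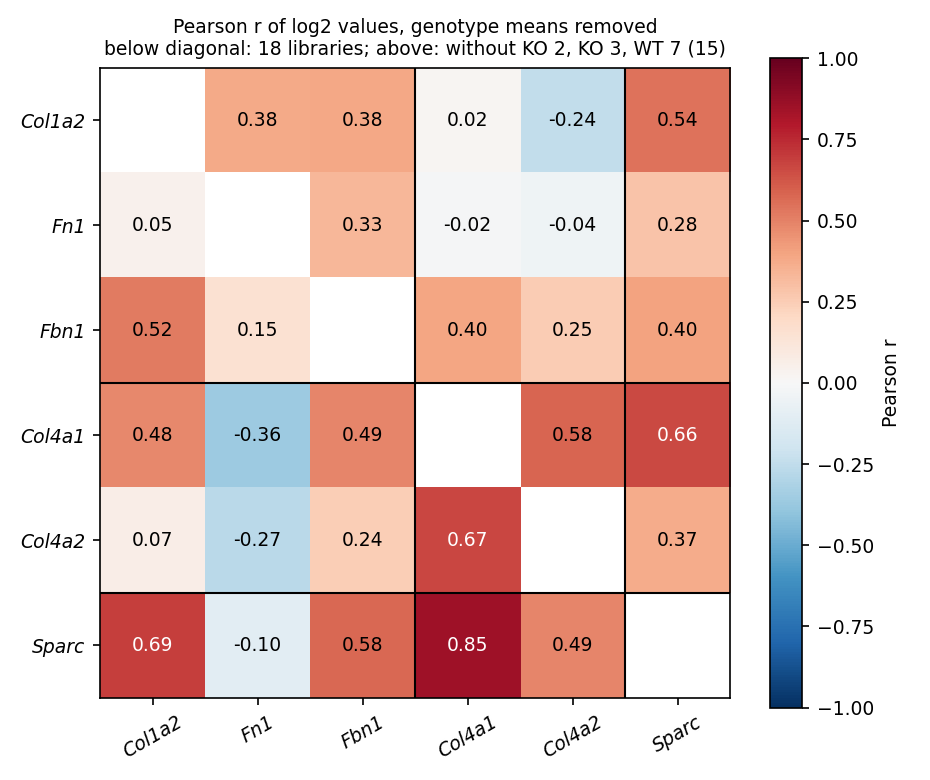
Pearson r of log2 values for the 15 pairs of genes with genotype means removed, over 18 libraries below the diagonal and over 15 libraries above it; lines separate interstitial genes, type IV collagen genes and Sparc. Sparc with Col4a1 is highest at 0.85 below and 0.66 above the diagonal, and Fn1 has its highest r at 0.15 (Fbn1) below it and 0.38 (Col1a2) above it.

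The genes most like each of the 6 by r over the same 18 libraries, among those with a mean log2 value of at least 3, were mostly outside the matrix. For Col4a1 they were Sparc, Ptprb, Pias1, Wipi2 and Tlcd3b at r of 0.85 to 0.82. Ptprb, a receptor phosphatase of endothelial cells, stood at 0.84 over 18 libraries and 0.55 without KO 2, KO 3 and WT 7. For Col4a2 they included Llgl2, Plod3, Sparcl1 and Cx3cr1, at 0.81 to 0.75. Plod3, a lysyl hydroxylase that modifies collagen chains, stood at 0.79 with and 0.79 without the 3 libraries, and Sparcl1, a relative of Sparc, at 0.79 and 0.76. For Sparc they were Ccdc9b, Cald1, Col4a1, Lrrc49 and Cacnb3 at 0.87 to 0.84. For Col1a2 they were Slc7a14, Dnajc13, Nipbl, D3Ertd751e and Srrm2 at 0.91 to 0.88. The highest for Fbn1 was Eno2 at 0.90 and for Fn1 Prkca at 0.79. Picked as the highest of 7417 or 7418 genes, these values carry no test.

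Between genotypes, the 3 interstitial genes had higher means in KO and none passed the test, Col4a1 had a smaller difference in the same direction, and Col4a2 and Sparc had almost equal means. Limma over all 10509 genes called 0 of the 6 at an adjusted p under 0.05, where the background over all genes is also 0%. At an unadjusted p under 0.05, 1 of the 6 stood (Fn1), against 5.40% of all genes (567 genes), or 3.18% in the direction of higher in KO. That count was 0 when KO 1, KO 4, KO 7, WT 1 or WT 3 was left out and 3 when KO 5, KO 6, KO 8, KO 9 or WT 7 was. A log2 fold change of at least 0.5 was reached by 3 of the 6, against 5.89% of all genes, and the groups overlapped for all 6, where 0.00952% of genes did not overlap. An exact permutation test over all 43758 regroupings, run for each gene, called 0 of 10509 with 5.45% at an unadjusted p under 0.05 (573 genes). The log2 fold change was above 0 for 5 of the 6 against 49.6% of all genes, and the median over the 6 was 0.49 against -0.00 over all genes. A fold change is on the scale of log2 of CPM plus 0.562 CPM, so differences of Fn1 and Fbn1 come out smaller than in CPM.

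Col1a2, the second chain of type I collagen, had 3.83, 14.1 and 27.9 CPM as lowest, median and highest in KO, against 3.54, 6.89 and 14.2 CPM in WT. KO was high in KO 2, KO 3, KO 8, KO 1 and KO 7, all 5 above the highest WT library, WT 6, while KO 4, KO 5, KO 6, KO 9 and KO 10 lay within the WT range, so the groups overlapped. Its log2 value was 3.57 ± 0.89 (SD, n = 10) in KO and 2.95 ± 0.55 (SD, n = 8) in WT. The log2 fold change was 0.63 (SE 0.33, 95% interval -0.05 to 1.30, limma adjusted p = 0.945). Leaving out KO 2, KO 3 and WT 7 gave 0.41, and leaving out only KO 2 and KO 3 gave 0.36. Its partner chain Col1a1, which pairs with Col1a2 in type I collagen, had a log2 fold change of 0.09 (SE 0.42, limma adjusted p = 0.989), and the difference between the chains was not tested.

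Fn1 had 0.755, 2.49 and 7.92 CPM as lowest, median and highest in KO, against 0.724, 1.10 and 2.14 CPM in WT. KO 4, KO 6, KO 7, KO 1, KO 9 and KO 3 lay above the highest WT library, WT 5, while KO 2 and KO 10 lay at the level of the lowest WT libraries. The log2 fold change was 0.86 (SE 0.39, 95% interval 0.06 to 1.66), with a limma p of 0.0356 and an adjusted p of 0.925, and an exact permutation p of 0.0209 with an adjusted p of 0.827. The 5 highest Fn1 libraries were outside the 3 set apart, and its log2 fold change without them was 1.03. Its reads summed to 109 over 10 KO libraries and 35 over 8 WT libraries, and 6 of 18 libraries had 3 reads or fewer.

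Fbn1 had 0.531, 2.67 and 13.3 CPM as lowest, median and highest in KO, against 0, 1.25 and 2.46 CPM in WT. WT 2 had 0 reads, which allows up to 0.787 CPM (3 reads) by counting error alone. KO 3, KO 1, KO 4, KO 2, KO 7 and KO 10 lay above the highest WT library, WT 7, and KO 6, KO 8, KO 9 and KO 5 were low. The log2 fold change was 1.01 (SE 0.51, 95% interval -0.03 to 2.04, limma adjusted p = 0.935), and 0.81 without KO 2, KO 3 and WT 7. Reads summed to 119 in KO and 34 in WT, with 7 libraries at 3 reads or fewer.

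Col4a1 had 64.7, 105 and 243 CPM as lowest, median and highest in KO, against 68.3, 80.0 and 119 CPM in WT. KO 2 was highest, followed by KO 3 and WT 7, and KO 8 and KO 6 were below the lowest WT library, WT 5. The log2 fold change was 0.34 (SE 0.18, 95% interval -0.03 to 0.72, limma adjusted p = 0.945), 0.21 without KO 2, 0.22 once KO 2, KO 3 and WT 7 were left out, and 0.15 with WT 7 kept. Gm15418, an annotated antisense RNA, overlaps the last 1000 bases of Col4a1, and no source used here says whether reads were counted by strand.

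Col4a2 had 31.1, 49.8 and 83.8 CPM as lowest, median and highest in KO, against 37.6, 56.3 and 62.2 CPM in WT. KO 2 was again highest and KO 8 lowest, and the WT libraries lay between them. The log2 value was 5.71 ± 0.38 (SD, n = 10) in KO and 5.71 ± 0.28 (SD, n = 8) in WT, and the 95% interval of the limma log2 fold change was -0.34 to 0.34. Sparc had 130, 198 and 380 CPM as lowest, median and highest in KO, against 151, 174 and 359 CPM in WT. KO 2, WT 7 and KO 3 were the 3 highest libraries, and KO 10, KO 6 and KO 8 lay below the lowest WT library, WT 4. Its log2 fold change was 0.05 (SE 0.20, 95% interval -0.35 to 0.45, limma adjusted p = 0.987), and -0.02 without KO 2, KO 3 and WT 7. For neither Col4a2 nor Sparc does the p show that the groups are alike, and the intervals bound the difference.

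**Figure D3:**
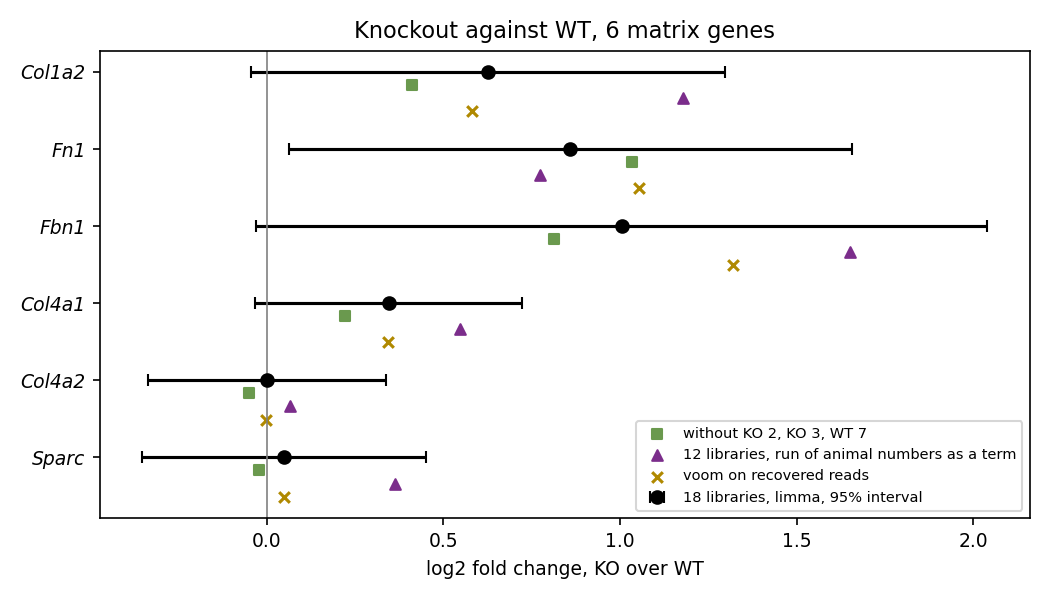
Log2 fold changes of KO over WT for the 6 genes; black points are limma over 18 libraries with 95% intervals, squares leave out KO 2, KO 3 and WT 7, triangles use 12 libraries with the run of animal numbers as a term, and crosses are voom on recovered reads. The point estimates run from -0.00 for Col4a2 to 1.01 for Fbn1, and Fn1 alone has an interval above 0 before adjustment over all genes.

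Animal numbers in the sample names form 3 runs of consecutive numbers that hold both genotypes, 12 libraries in all, and the labels do not say what a run stands for. When these 12 libraries were fitted with run as a covariate, the limma log2 fold change was 1.18 for Col1a2 (adjusted p = 0.478), 1.65 for Fbn1 (adjusted p = 0.502), 0.77 for Fn1 (adjusted p = 0.666), 0.55 for Col4a1 (adjusted p = 0.492), 0.36 for Sparc (adjusted p = 0.578) and 0.07 for Col4a2 (adjusted p = 0.944). At an unadjusted limma p under 0.05 there, 3 of the 6 stood, Col1a2 (p = 0.00218), Col4a1 (p = 0.00998) and Fbn1 (p = 0.0198), and Fn1 did not (p = 0.155). In that fit 919 of all 10509 genes stood at this threshold, more than the 567 of the fit of 18 libraries. The same 12 libraries without the run in the fit gave 1.14 for Col1a2, 1.498 for Fbn1, 0.90 for Fn1, 0.42 for Col4a1, 0.28 for Sparc and -0.05 for Col4a2, so for Col1a2 and Fbn1 most of the step from the 18-library values came with the choice of libraries. The run of KO 2 and KO 3 with WT 1 and WT 2 gave the highest differences for Col1a2, Fbn1, Col4a1 and Sparc, at 1.79, 3.53, 1.10 and 0.93 on the log2 scale. In the run of KO 4 and KO 5 with WT 3 and WT 4 these were 0.93, 1.36, 0.26 and 0.12, and in the run of KO 6, KO 7 and KO 8 with WT 5 they were 0.69, -0.45, 0.19 and -0.07. Col1a2, Fn1 and Col4a1 were higher in KO in each of the 3 runs, and Fn1 differed by 0.24, 1.48 and 0.54. The 12 libraries hold KO 2 and KO 3 but not WT 7, so low-complexity libraries are in KO only there. These 12 were not fitted without KO 2 and KO 3, and the part of low complexity in these differences was not tested.

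The 2 type IV chains can also be set against each other within a library. Within a library, log2 Col4a1 minus log2 Col4a2 was 1.02 ± 0.31 (SD, n = 10) in KO and 0.68 ± 0.35 (SD, n = 8) in WT, which corresponds to 2.03 and 1.60 as the Col4a1 to Col4a2 ratio. The lowest, median and highest values were 0.71, 0.98 and 1.53 in KO and 0.21, 0.65 and 1.12 in WT. All 10 KO libraries lay above the WT median and 3 lay above the highest WT library, so the groups overlapped. Without KO 2, KO 3 and WT 7 the means were 0.90 ± 0.17 (SD, n = 8) in KO and 0.63 ± 0.34 (SD, n = 7) in WT. This ratio was picked after the values had been seen and carries no test.

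**Figure D4:**
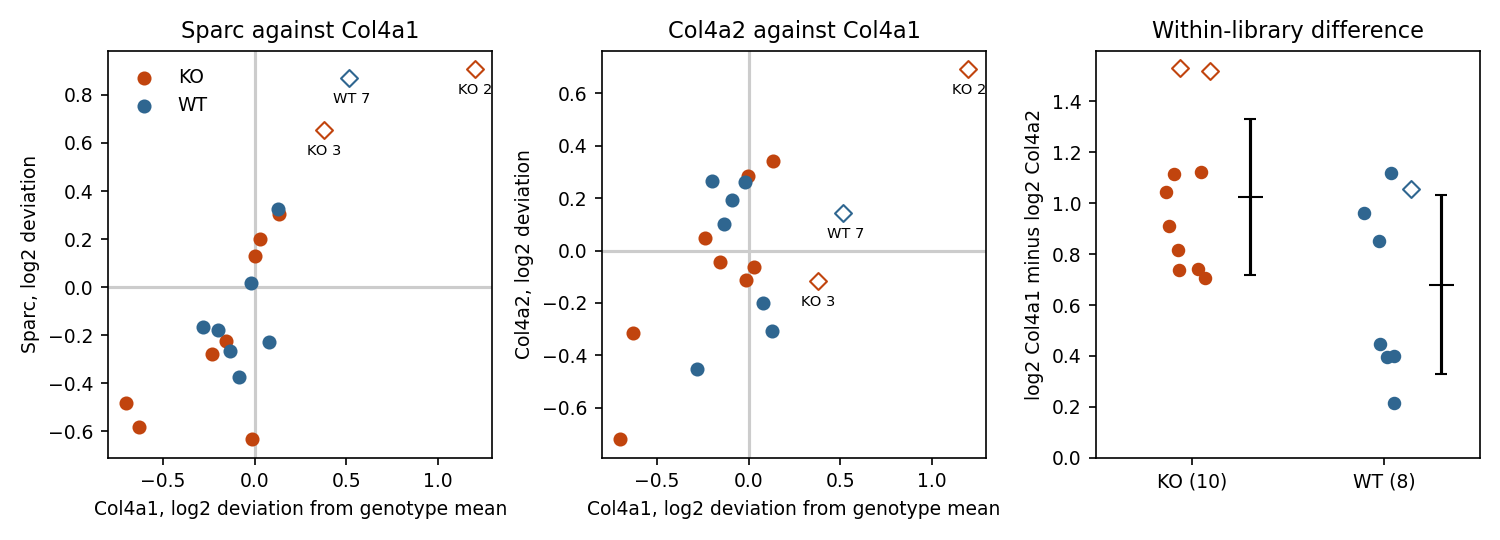
Left and middle, Sparc and Col4a2 against Col4a1 as log2 deviations from the genotype mean, 1 point per library; right, log2 Col4a1 minus log2 Col4a2 per library with KO left of WT, bars giving mean and SD. KO 2, KO 3 and WT 7 (diamonds) lie at the upper right of the Sparc plot, and the within-library difference averages 1.02 in KO and 0.68 in WT.

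Among other genes of the matrix, 0 genes of 7 lists passed the limma test, and some with few reads had log2 fold changes as large as those of the 6. Of 15 measured interstitial genes 11 had a log2 fold change above 0, with a median of 0.16, and without the 3 members 8 of 12 did, with a median of 0.09. Beside the members, the proteoglycan Vcan was at 1.00 (0 to 22 reads per library), while Col5a1 at -0.31 and Col6a2 at -0.28 were lower in KO without passing. Of 12 basement membrane genes 8 were above 0, with a median of 0.25. The laminin chains Lama5 and Lamb1 were at 1.20 (limma adjusted p = 0.811; 2 to 45 reads) and 0.46 (adjusted p = 0.925), and Nid1, which bridges laminin and type IV collagen, was at -0.07. Of 5 matricellular genes 4 were above 0, and Sparcl1, the one of smallest limma p, was at 0.55 (adjusted p = 0.925). Enzymes and chaperones that fold and crosslink collagen were split, with 8 of 18 above 0 and a median of -0.06. The collagen chaperone Serpinh1 was at 0.64 and the crosslinking enzyme Lox at 0.62, while Sec24d, a coat protein of collagen export, was at -0.35 and Plod3 at -0.18.

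Receptors and remodelling genes were near the middle of all genes. Of 14 matrix receptors 7 were above 0, with a median of 0.03, with the syndecan Sdc2 at 0.36 and dystroglycan, Dag1, at -0.21. Of 13 turnover genes 7 were above 0, with a median of 0.03. There the metalloproteinase inhibitor Timp1 was at 1.38 (limma adjusted p = 0.811; 0 to 46 reads) and the membrane metalloproteinase Mmp14 at 0.52 (adjusted p = 0.925), while Mmp15 was at -0.62. Of 15 genes of TGF-beta signalling, the pathway that drives matrix synthesis in fibroblasts, 9 were above 0 with a median of 0.06, with the inhibitor Smad7 at 0.52 and the receptor Tgfbr1 at 0.38. The cell markers that could carry these transcripts gave medians of -0.02 over 19 endothelial, 0.21 over 9 pericyte and smooth muscle and 0.15 over 6 fibroblast and stellate genes. In the same order, 9 of 19, 5 of 9 and 6 of 6 were above 0. The fibroblast and stellate list shares Dcn (0.06), Col1a1 (0.09) and Col3a1 (0.59) with the interstitial list. Its direction is therefore not separate from that of the matrix genes. The VEGF receptor Flt1 was at 0.49 (limma adjusted p = 0.805) and the pericyte gene Rgs5 at 0.34. Lower in KO were the endothelial marker Egfl7 at -0.23 and the smooth muscle marker Acta2 at -0.44. Adipocyte markers had the highest median of the cell lists at 0.63, with 4 of 4 measured genes (of 8 listed) above 0 and a summed level of 81.0 to 258 CPM in KO and 81.7 to 187 CPM in WT. The fatty acid carrier Fabp4 was at 0.78 (limma adjusted p = 0.797) and the carbonic anhydrase Car3 at 0.86 (adjusted p = 0.925). Alpha-cell markers had the lowest median at -0.62, with 6 of 6 below 0 and a summed level of 2016 to 9280 CPM in KO and 3828 to 11774 CPM in WT, with glucagon, Gcg, at -0.74 (adjusted p = 0.925). No measured marker of either list was at 0 reads in every library. The median over all genes was -0.00. The part of these cell types in the values of the 6 genes was not tested. With the endothelial marker mean as a covariate, the limma log2 fold change was 0.28 for Col4a1, -0.04 for Col4a2, 0.01 for Sparc, 0.60 for Col1a2, 0.92 for Fn1 and 0.95 for Fbn1.

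**Figure D5:**
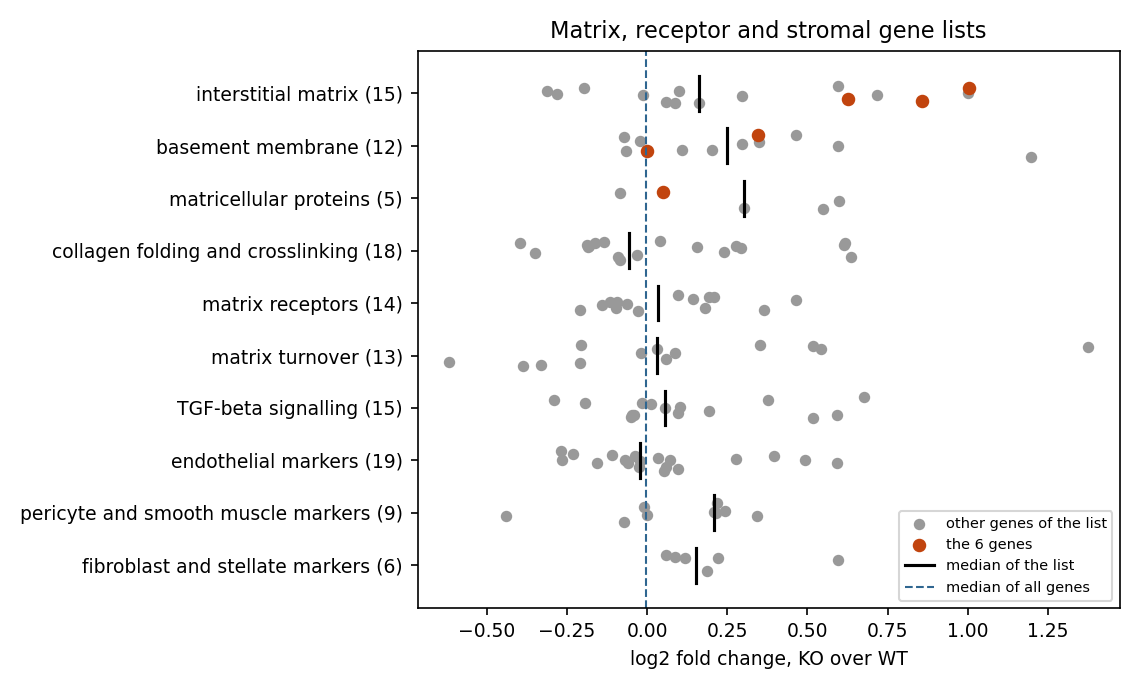
Log2 fold changes of KO over WT for each measured gene of 10 lists, with the 6 genes in orange, list medians as black bars and the median of all genes as a dashed line. List medians run from -0.06 for collagen folding and crosslinking to 0.30 for matricellular proteins.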

How the data were processed

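Pancreatic islet samples, 10 labelled as knockout and 8 as WT, were profiled by 3' end RNA sequencing (QuantSeq), with 1 library per sample name and 1 column each. The authors deposited log2 values, and the build GRCm38, edgeR, HTSeq 0.6.1 and STAR 2.5.2 appear in the submitters' processing notes, in roles not given. No source used here states the filter or prior count. The lowest log2 value, -0.83, was the same in each column (0.562 CPM). With it removed, the deposited values were whole multiples of 0.238 to 0.411 CPM (1 read), within 0.05 reads for 100% of values. Levels in CPM and reads were computed this way.

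Genotypes were compared with limma 3.58.1 in R 4.3.3 (mean-variance trend, no covariate, Benjamini-Hochberg over 10509 genes), and correlations with numpy 2.4.6 and scipy 1.17.1. Both steps were also run on simulated data, with outcomes not given here, so these runs lend no weight to the calls. The simulated pairs held no low-complexity libraries. The 73 library pairs within groups differed beyond sampling noise (chi-square per degree of freedom 6.22 to 44.3 over genes with reads). Each sample name carries its own animal number and nothing else says that samples were separate mice, so p-values measure the spread between these libraries. Intervals cover counting error only where they rest on reads. Sequences are RefSeq GRCm38.p6, and 5 of the 6 genes had a promoter window. The 6 genes, the lists and the rule for named genes (the 6, at most the 2 genes of smallest p per direction and list, and the 5 of highest r) were chosen with earlier results of these data known. Col1a1, Dcn, Vcan and Col6a2 are named outside that rule, after their values were seen, and 1 gene that the rule selects is not reported here.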

Additional observations from a re-analysis of the deposited data

How the results depend on the processing

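The limma test called 0 genes, and 0 of the 6, in each of 35 alternatives, among them a stricter filter (log2 above 3 in at least 8 libraries, which dropped Fn1 and Fbn1), 1 CPM added, median or quantile normalization, other variance models, voom on recovered reads, marker covariates and each library left out. Over all alternatives the log2 fold change stayed between 0.36 and 1.18 for Col1a2, 0.70 and 1.05 for Fn1, 0.67 and 1.65 for Fbn1 and 0.15 and 0.55 for Col4a1. The near-zero values changed sign. Col4a2 was at 0.000168 with 1 CPM added, 0.00848 with quantile normalization, 0.0654 over 12 libraries with run as a covariate, 0.14 over 15 libraries with KO 1 put in the run of WT 6 and WT 7 (added after seeing the data), and -0.0769 to 0.0800 with each library left out. Sparc was at -0.0222 without KO 2, KO 3 and WT 7, -0.15 without KO 2 and KO 3 (added after seeing the data), and -0.0523 to 0.173 with each library left out. Having no filter gave the same genes.

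Of the 15 pairs, 3 passed with median centring, with 1 CPM added and with the acinar score removed, 0 passed without KO 2, KO 3 and WT 7, and 1 to 4 with each library left out (1 without KO 2, 1 without KO 6, 1 without KO 10). Without the 3 libraries, r turned to -0.24 for Col1a2 with Col4a2 and to 0.28 for Fn1 with Sparc. With each library left out, r ran from -0.21 to 0.24 for Col1a2 with Col4a2, -0.31 to 0.16 for Fn1 with Sparc and -0.23 to 0.31 for Col1a2 with Fn1. With the acinar score removed, Col1a2 with Sparc no longer passed (r = 0.57) and Col4a2 with Sparc did (r = 0.70). Col4a1 with Sparc kept its call in each fit that left out 1 library. The cause was not tested. No paired analysis was possible because the labels give no replicate numbers (those used here follow sample order and pair no libraries), and the fits within runs of animal numbers stand in the report. Fn1 and Fbn1, at a median of 6 reads per library each, are the values that depth limits most.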

Other observations

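Over all 18 libraries the spread between libraries was larger in KO for all 6 genes. The SD of log2 values in KO over that in WT was 2.44 for Fn1, 2.15 for Col4a1, 1.64 for Col1a2, 1.40 for Fbn1, 1.38 for Col4a2 and 1.28 for Sparc, and its median over all genes was 1.14, with 61.9% of genes above 1. Without KO 2 and KO 3 the spread was larger in KO for 5 of the 6. The SD was then 0.31 for Col4a1 in KO against 0.25 in the 8 WT libraries and 0.87 for Fn1 against 0.36. Sparc turned to 0.37 in KO against 0.41 in WT. The median SD over all genes was 0.43 in KO against 0.45 in WT. WT 7, the highest WT library for both Sparc and Col4a1, was kept here. The removal was therefore unequal between the groups, and the WT SD without WT 7 was not computed. The difference in spread was not tested. The log2 difference of Sparc minus Col4a1 was 0.94 ± 0.27 (SD, n = 10) in KO and 1.23 ± 0.23 (SD, n = 8) in WT, and 0 of 10 KO libraries lay above the WT median. It was picked after the values had been seen and carries no test.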
